A study of Mus musculus with 23 samples.

Results

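The 10 genes described here encode the NF-kappaB subunits *Nfkb1*, *Nfkb2*, *Rela* and *Relb*, the IkB inhibitors *Nfkbia*, *Nfkbib* and *Nfkbie*, the feedback genes *Tnfaip3* and *Birc3*, and *Btrc*. They were chosen by name, through the Ensembl identifiers of 10 among the 56941 genes in the count files, and with earlier results of these data known. RNA was sequenced from primary hippocampal cultures of newborn mice homozygous for the Nedd8cKO allele, in which loxP sites flank exons of *Nedd8*. The cultures were infected with lentivirus that expressed either RFP or CRE tagged with RFP, both under the Synapsin1 promoter, which acts in neurons. Every culture carried the same allele, and the groups, called CRE and RFP, differed in the virus alone. The labels place RNA extraction after 12 days in culture. The sex of the pups was not checked. The library names carry numbers 1 to 3, which were read as cultures although the labels do not say so in words. On this reading the 11 CRE and 10 RFP libraries compared stand for 3 cultures. P-values over libraries then measure a spread that may be technical. With counts summed per culture, 3 sums against 3, *Nfkb2* (log2 fold change 1.10, adjusted p = 0.00604, edgeR) and *Nfkbib* (0.60, adjusted p = 0.0419) were called and *Nfkb1* was not (0.61, adjusted p = 0.0664).

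NF-kappaB dimers are held inactive by IkB proteins, which mask their nuclear localization signal. Upon stimulation, the IkB kinase phosphorylates the inhibitor at a short motif, the SCF ubiquitin ligase binds this motif through its F-box protein Btrc, and the inhibitor is ubiquitinated and degraded. The scaffold of this ligase is the cullin Cul1, which is activated by covalent attachment of Nedd8. The precursor encoded by *Nfkb2* is processed to its DNA-binding form in the noncanonical branch of the pathway, downstream of the kinase Map3k14. Liberated dimers induce their own inhibitors and brakes, among them *Nfkbia*, *Tnfaip3* and *Birc3*.

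The motif that Btrc recognizes was searched in the coding sequences in a single form. This form was codons for aspartate, serine and glycine, followed by 2 or 3 residues and a serine. Other forms of the motif were not searched, so genes without a match, *Nfkb2* among them, may hold another form. The searched form was found in 3.06% of 22263 canonical coding sequences of GRCm39 (GENCODE M39) and in 4 of the 10 genes. These codons are shown because they are the contact between the inhibitors and the Nedd8-dependent ligase, and the capitals mark them within the flanking codons, read 5′ to 3′ on the coding strand. In *Nfkbia* the motif starts at codon 31 in exon 1 (chr12:55539204-55539221, minus strand), in *Nfkbib* at codon 18 in exon 1 (chr7:28465779-28465796, minus strand), in *Nfkbie* at codon 17 in exon 1 (chr17:45866915-45866932, plus strand) and in *Nfkb1* at codon 929 in exon 25 (chr3:135291227-135291247, minus strand).
Nfkbia: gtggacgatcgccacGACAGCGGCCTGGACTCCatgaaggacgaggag
Nfkbib: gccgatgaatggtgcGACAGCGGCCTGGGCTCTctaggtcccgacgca
Nfkbie: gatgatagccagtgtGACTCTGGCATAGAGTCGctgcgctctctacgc
Nfkb1: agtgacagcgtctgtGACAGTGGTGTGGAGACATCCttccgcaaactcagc
In the 3 IkB inhibitors the motif lies near the start of the protein, and in *Nfkb1* it lies near the end of the precursor.

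Promoters were read from RefSeq (GRCm38.p6), as the 250 bases before a gene's start, and searched on both strands for the kappaB consensus. A match was present in 3.9% of 32851 promoters and in 4.46% of 27025 genes with a promoter. Among the 7 members in this table, *Nfkb2*, *Nfkbia*, *Nfkbie* and *Tnfaip3* had a match in at least 1 promoter, and *Rela*, *Nfkbib* and *Birc3* had none. *Nfkb1*, *Relb* and *Btrc* were not in the table. The promoters of *Nfkb2* (chr19:46304487-46304736, plus strand) and *Nfkbia* (chr12:55492648-55492897, minus strand) are printed because both hold matches close to the start, and *Nfkb2* was called in the comparison of the groups while *Nfkbia* was not. Capitals mark the matches.
Nfkb2: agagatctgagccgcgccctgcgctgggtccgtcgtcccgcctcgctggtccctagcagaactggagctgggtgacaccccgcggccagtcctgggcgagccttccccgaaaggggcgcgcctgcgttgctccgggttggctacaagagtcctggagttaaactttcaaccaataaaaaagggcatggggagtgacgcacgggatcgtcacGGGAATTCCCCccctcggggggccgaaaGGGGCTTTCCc
Nfkbia: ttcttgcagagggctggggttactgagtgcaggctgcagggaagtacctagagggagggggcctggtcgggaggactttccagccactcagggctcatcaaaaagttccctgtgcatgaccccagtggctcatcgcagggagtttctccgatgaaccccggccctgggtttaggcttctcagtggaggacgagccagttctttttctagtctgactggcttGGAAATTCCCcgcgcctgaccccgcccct
In *Nfkb2*, matches began 39, 38 and 11 bases before the start, of which the first reads the same on both strands and overlaps the second. In *Nfkbia*, a single match began 29 bases before the start. In promoters not printed, matches began 125 and 12 bases before a start of *Tnfaip3* and 106 bases before that of *Nfkbie*. In other promoters of *Nfkb2* they began 236 and 225 bases before the start. These matches are a description of the letters in the window and not evidence of binding.

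The comparison used 21 libraries, 11 CRE and 10 RFP, whose counts assigned to genes summed to between 7430401 and 17112815 per library. The targeted gene, *Nedd8*, lay between 5.92 and 18.0 CPM (counts scaled to the library total and its TMM factor) in CRE and between 44.1 and 76.0 CPM in RFP libraries. The groups did not overlap, and every CRE library lay below every RFP library, as for 2.08% of all genes tested (log2 fold change -2.44, SE 0.17, adjusted p = 6.98e-11, edgeR). Libraries Nedd8Cre3-3 and Nedd8RFP3-2 were left out, following the authors' own count table. Library Nedd8Cre1-3, which was retained, stood apart with a mitochondrial share of 0.261% of counts, and Nedd8RFP2-4 had 3.43%, against 7.0% to 11.1% in the other libraries compared. Of the 10 members, 9 passed the filter on low counts, and *Birc3* did not.

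Of these 9 genes, *Nfkb1*, *Nfkb2* and *Nfkbib* were higher in CRE than in RFP libraries (adjusted p under 0.05, edgeR quasi-likelihood test), and 0 were lower, also at an unadjusted p under 0.05 and with DESeq2. Among all 14488 genes tested, 30.2% were called, 16.4% higher and 13.8% lower. The median log2 fold change of the 9 genes was 0.53, against 0.02 over all genes tested, and 8 of the 9 were positive. Without Nedd8Cre1-3 the median of the 9 fell to 0.23. This library held the highest CRE level for 7 of the 9 genes, whereas it held the highest CRE level for 30.8% of all genes tested. Values without this library are given beside the members it moved by over 1.5 times and beside some other genes.

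**Figure D1:**
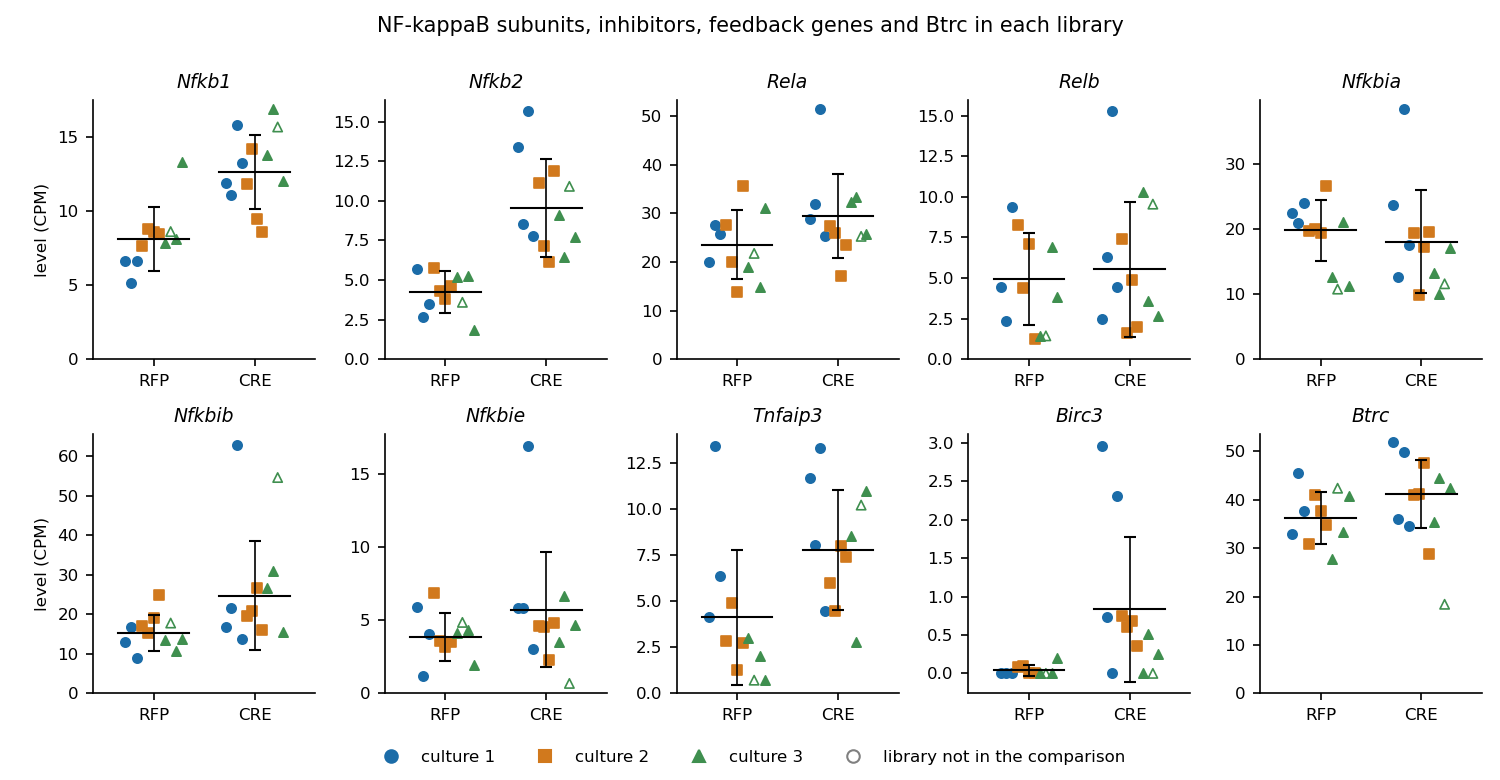
Level of each of the 10 genes (CPM, linear axis) in every library, by group, with culture shown by colour and shape. Horizontal lines and bars are the mean and SD of the libraries compared (11 CRE, 10 RFP), and open symbols are the libraries left out of the comparison. All 11 CRE libraries lie above all RFP libraries for *Nfkb2*, and the groups overlap for the other genes.

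Among the subunits, *Nfkb2*, the precursor of the noncanonical branch, had the highest log2 fold change of the 9 genes tested and the smallest adjusted p. It was lowest at 6.15, at a median of 8.56 and highest at 15.7 CPM in CRE libraries, and at 1.82, 4.47 and 5.76 CPM in RFP libraries. Each of the 11 CRE libraries lay above every RFP library, a pattern found for 2.64% of all genes tested, and in either direction for 4.72%. The means were 9.55 ± 3.08 CPM (SD, n = 11) and 4.25 ± 1.32 CPM (SD, n = 10), a log2 fold change of 1.14 (SE 0.23, adjusted p = 0.000369). The gene lies at chr19:46292759-46303812 on the plus strand (GRCm39), and 1933 of its 7901 exon bases are shared with *Psd* on the opposite strand. As the strand setting of the counting was not given in the sources used here, reads of the 2 genes may not be separated. *Psd*, which encodes an exchange factor for Arf6, was lower in CRE libraries, at 181 ± 91.3 against 296 ± 54.7 CPM (log2 fold change -0.73, adjusted p = 0.00479), which is the direction opposite to that of *Nfkb2*.

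*Nfkb1*, the precursor of the canonical subunit (chr3:135290264-135397742, minus strand), ranged from 8.60 over a median of 12.1 to 16.9 CPM in CRE and from 5.13 over 8.0 to 13.3 CPM in RFP libraries. Of the CRE libraries, 4 lay above all RFP libraries, and the highest RFP library, Nedd8RFP3-4, stood apart from the next, at 8.82 CPM. The means of 12.6 ± 2.50 (SD, n = 11) and 8.12 ± 2.15 CPM (SD, n = 10) corresponded to a log2 fold change of 0.62 (SE 0.17, adjusted p = 0.00656). The call was lost without culture 1 (0.46, adjusted p = 0.114) and with the sums per culture.

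*Rela*, the transactivating partner of the canonical dimer, and *Relb*, its counterpart in the noncanonical branch, were not called. *Rela* ranged from 17.1 to 51.4 CPM in CRE and from 13.9 to 35.5 CPM in RFP libraries, with a log2 fold change of 0.30 and a 95% interval of -0.07 to 0.67 (adjusted p = 0.226), and of 0.19 without Nedd8Cre1-3. *Relb* was scarce and variable, from 1.6 to 15.3 CPM in CRE and from 1.27 to 9.37 CPM in RFP libraries, with a log2 fold change of 0.14 and an interval of -0.68 to 0.96 (adjusted p = 0.835). Its estimate turned from positive to negative without Nedd8Cre1-3 (-0.13), among other alternatives, and lay between -0.25 and 0.43 over all of them. For *Relb*, a change of nearly 1 on the log2 scale in the positive direction therefore lay within the interval.

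Of the IkB inhibitors, *Nfkbib* was called and *Nfkbia* and *Nfkbie* were not, and the differences between the inhibitors were not tested. *Nfkbib*, encoding IkB beta (chr7:28457486-28466937, minus strand), ranged from 13.8 over a median of 20.7 to 62.8 CPM in CRE and from 8.95 over 14.6 to 24.9 CPM in RFP libraries. Of its 2359 exon bases, 314 are shared with *Ccer2*, 338 with *Gm71901* and 42 with *Sirt2*. All 3 genes lie on the opposite strand, so their reads may not be separated from those of *Nfkbib*. The groups overlapped, with 4 CRE libraries above all RFP libraries, and the value of 62.8 CPM belonged to Nedd8Cre1-3. The means were 24.7 ± 13.7 (SD, n = 11) and 15.3 ± 4.54 CPM (SD, n = 10), and the log2 fold change was 0.67 (SE 0.23, adjusted p = 0.0321). Without Nedd8Cre1-3 it was 0.43, at an adjusted p of 0.0566 in edgeR. It lost the call, each time by a small margin, without Nedd8Cre2-3 (0.64, adjusted p = 0.0571), Nedd8Cre3-1 (0.64, 0.0553), Nedd8Cre3-2 (0.61, 0.0639), Nedd8RFP1-1 (0.64, 0.0537), Nedd8RFP1-3 (0.60, 0.0608), Nedd8RFP3-3 (0.62, 0.0593) or Nedd8RFP3-4 (0.65, 0.0508). The call returned when Nedd8Cre1-3, Nedd8RFP2-4, Nedd8Cre3-3 and Nedd8RFP3-2 were all left out (0.53, adjusted p = 0.0139).

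*Nfkbia*, encoding IkB alpha, the inhibitor best known as an early target of NF-kappaB, ranged from 9.80 over a median of 17.3 to 38.4 CPM in CRE and from 11.2 over 20.4 to 26.6 CPM in RFP libraries. With a log2 fold change of -0.16 and a 95% interval of -0.58 to 0.27 it was not called (adjusted p = 0.626), and a rise of the size estimated for *Nfkb2* lay outside the interval. *Nfkbie*, encoding IkB epsilon, ranged from 2.30 over 4.69 to 16.9 CPM and from 1.21 over 3.82 to 6.84 CPM, with a log2 fold change of 0.53 and an interval of -0.13 to 1.2 (adjusted p = 0.231). The highest CRE value of both genes was that of Nedd8Cre1-3, and without it *Nfkbie* stood at 0.23 and *Nfkbia* at -0.33 (adjusted p = 0.570 and 0.142).

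Among the feedback genes, *Tnfaip3*, which encodes the ubiquitin-editing enzyme A20, ranged from 2.77 over a median of 8.02 to 13.4 CPM in CRE and from 0.706 over 2.91 to 13.4 CPM in RFP libraries. The highest RFP value was that of Nedd8RFP1-2, and no CRE library exceeded it. The log2 fold change was 0.88 (SE 0.38, 95% interval 0.10 to 1.67), which did not pass the threshold after adjustment (adjusted p = 0.0815). Without Nedd8RFP1-2 it was 1.30 with an adjusted p of 0.00576, and over all 23 libraries it was 1.04 with an adjusted p of 0.0441. Over the 19 libraries left without those that stood apart it was 0.73 (adjusted p = 0.146), with the sums per culture 0.81 (adjusted p = 0.265), and without culture 3 it was 0.60 (adjusted p = 0.333). *Tnfaip3* was called in 7 of 37 alternatives. Among them were DESeq2 (0.90, adjusted p = 0.0482) and the sums per culture with culture as a block.

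*Birc3*, which encodes an inhibitor of apoptosis protein with ubiquitin ligase activity, was close to the detection limit. It had between 0 and 39 counts in CRE libraries (median 8, 114 in all) and between 0 and 2 counts in RFP libraries (4 in all). It was at 0 in 7 of the 10 RFP and 2 of the 11 CRE libraries, and 9 CRE libraries lay above the highest RFP library. The 2 CRE libraries at 0 were Nedd8Cre1-3 and Nedd8Cre3-1. Without the filter on low counts it was called (adjusted p = 0.00173, where 21.2% of 32701 genes were), and so it was with counts summed per culture (adjusted p = 0.0107). No fold change is given, because the RFP group rested on 4 counts.

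*Btrc*, the substrate receptor that binds the motif shown above, was evenly expressed, at 28.9 to 51.9 CPM in CRE and 27.8 to 45.6 CPM in RFP libraries. The log2 fold change of 0.17 had a 95% interval of -0.07 to 0.41 (adjusted p = 0.309). A change above 0.41 on the log2 scale in either direction lay outside this interval.

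The fold changes within each culture are descriptive, since the numbers in the library names were read as cultures and the labels do not say so in words. *Nfkb2* was positive in all 3 cultures (1.5, 0.95 and 0.92 in cultures 1, 2 and 3), as was *Nfkb1* (1.06, 0.38 and 0.54). *Nfkbib* stood at 1.13, 0.10 and 0.95, and *Tnfaip3* at 0.20, 1.13 and 1.94. *Rela*, *Relb* and *Nfkbie* were positive in cultures 1 and 3 and negative in culture 2. A test of the difference between cultures called none of the 9 genes (unadjusted p of at least 0.124, adjusted p from 0.977 to 0.987), where 0.0069% of all genes were called.

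**Figure D2:**
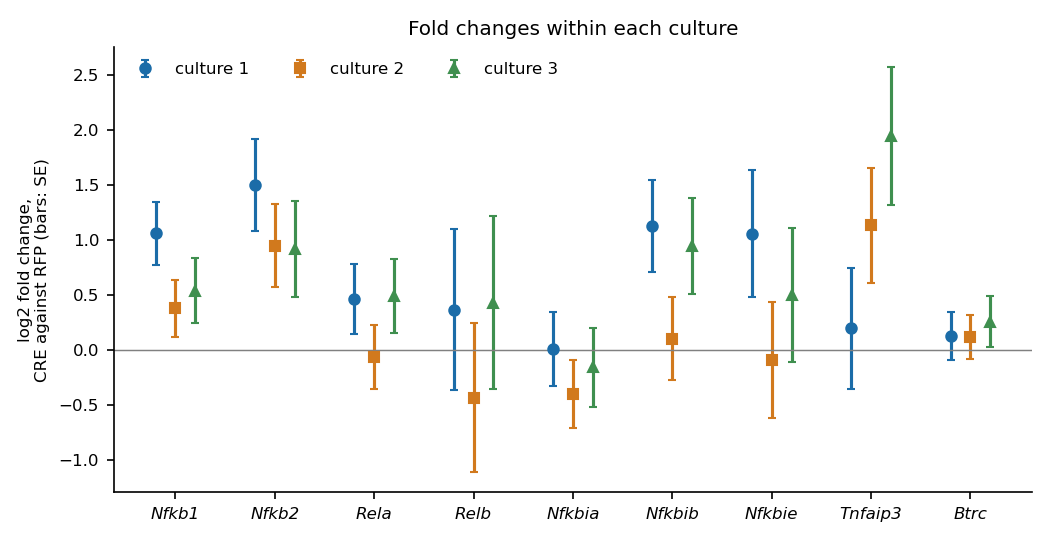
Log2 fold change of CRE against RFP libraries within each of the 3 cultures, for the 9 genes tested. Points are estimates and bars are SE. *Nfkb2* and *Nfkb1* are positive in all 3 cultures, and *Tnfaip3* runs from 0.20 in culture 1 to 1.94 in culture 3.

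Relative levels of the genes were compared per length of the canonical transcript, in CPM per kilobase. In RFP libraries *Nfkbia* (12.6), *Btrc* (11.9), *Nfkbib* (11.2) and *Rela* (8.64) formed an upper group whose neighbours did not differ beyond their SD. *Nfkb1* (1.73), *Nfkbie* (1.57), *Relb* (1.45), *Nfkb2* (0.630) and *Tnfaip3* (0.600) formed a lower group, below *Rela* by more than the SD, and *Birc3* was lowest (0.0067). In CRE libraries *Nfkbib* (18.0) took the first rank and *Nfkbia* the third (11.5), again without a gap beyond the SD among the upper 4.

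The genes whose log2 CPM followed a called member most closely over the 21 libraries were *Tsku* and *Taldo1* for *Nfkb2* (Spearman's rho 0.926 each), *Prkab1* (0.901) and *Hs3st5* (0.869) for *Nfkb1*, and *Dolk* (0.819) and *Slc1a6* (0.796) for *Nfkbib*, out of 14487 genes searched. The points share the libraries and the condition, so these values are a description only.

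The wider pathway was examined with 101 further genes in 6 lists, of which 69 passed the filter. These lists, too, were chosen with earlier results known. Of the 69, 25 were higher and 2 lower, where 16.4% and 13.8% of all genes tested were. Their median log2 fold change was 0.24, against 0.02 over all genes, and in 5 every CRE library lay above every RFP library, where 2.64% of all genes did so. The 2 that fell were *Il18*, a cytokine, and *Rbx1*, the RING partner of Cul1. A gene could pass the filter on low counts through its CRE libraries alone. In RFP libraries *Icam1* had 0 to 36 counts, *Plau* 0 to 9, *Lcn2* 0 to 34 and *Il1r1* 0 to 57. Such genes were tested through their level in CRE libraries. The numbers called higher, here and per list below, therefore follow in part from the filter.

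Of the receptors, 6 of 10 tested were higher and 4 were not called, with a median log2 fold change of 0.76, against 16.4% higher and a median of 0.02 over all genes tested. Among the 6, *Tnfrsf12a* shares 1965 of its 1965 exon bases with *Hcfc1r1* on the opposite strand. *Tnfrsf1a*, the main receptor for TNF, lay between 55.4 and 305 CPM in CRE and between 18.9 and 39.2 CPM in RFP libraries, without overlap (log2 fold change 2.16, SE 0.22, adjusted p = 5.02e-08). The highest value was again that of Nedd8Cre1-3. *Ltbr*, the lymphotoxin beta receptor that feeds the noncanonical branch, averaged 26.6 ± 13.2 CPM in CRE and 8.73 ± 5.21 CPM in RFP libraries (1.58, adjusted p = 0.0003). *Il1r1*, the interleukin-1 receptor, averaged 6.66 ± 3.98 and 0.899 ± 1.29 CPM (2.85, adjusted p = 0.000898). Of the receptors that failed the filter, *Tlr4* had 456 counts in all CRE and 18 in all RFP libraries. *Tnfrsf1b* had 127 and 21, *Tlr9* 32 and 14, *Tlr7* 18 and 12 and *Cd40* 15 and 10. Fewer counts in CRE libraries were found for *Tlr2* (28 and 71) and *Il18r1* (0 and 12).

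Of the kinases, adaptors and ubiquitin editors, 7 of 31 tested were higher and 24 were not called, with a median of 0.14, against 16.4% higher and a median of 0.02 over all genes tested. *Map3k14*, the kinase upstream of *Nfkb2* processing, lay between 5.12 and 23.8 CPM in CRE and between 2.06 and 5.04 CPM in RFP libraries, without overlap (log2 fold change 1.59, SE 0.25, adjusted p = 2.16e-05). *Ripk1*, a kinase at the TNF receptor, averaged 17.7 ± 4.39 and 8.15 ± 2.35 CPM (1.10, adjusted p = 5.67e-05), and *Ticam1*, an adaptor of Toll-like receptors, 17.3 ± 7.20 and 9.05 ± 1.29 CPM (0.91, adjusted p = 0.000796). The subunits of the IkB kinase were not called. The catalytic *Ikbkb* stood at 0.24 (95% interval 0.01 to 0.47, adjusted p = 0.115), and without Nedd8Cre1-3 at 0.27 with an adjusted p of 0.0424. *Chuk* stood at 0.10 (-0.39 to 0.59) and the regulatory *Ikbkg* at 0.09 (-0.33 to 0.50). Both were lowest among the CRE libraries compared in Nedd8Cre1-3, at 5.86 and 9.54 CPM. When 1 library was left out, *Chuk* ranged from -0.03 to 0.21 and *Ikbkg* from -9.31e-05 to 0.20.

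Target genes outside the 10 members were called higher in 7 of 13 tested, and 6 were not called, with a median of 0.73, against 16.4% higher and a median of 0.02 over all genes tested. *Icam1*, an adhesion molecule, lay between 5.84 and 28.9 CPM in CRE and between 0 and 2.56 CPM in RFP libraries, without overlap (log2 fold change 4.31, SE 0.49, adjusted p = 2.16e-07). *Csf1*, a growth factor for macrophages and microglia, averaged 78.3 ± 21.9 and 22.5 ± 7.03 CPM, also without overlap (1.78, SE 0.18, adjusted p = 5.02e-08). *Cd44*, a hyaluronan receptor, averaged 31.3 ± 13.4 and 9.69 ± 1.95 CPM (1.67, adjusted p = 4.88e-06), with 10 CRE libraries above and Nedd8Cre1-3 below all RFP libraries. A further 15 target genes failed the filter. Among them, *Saa3* had 377 counts in all CRE and 3 in all RFP libraries and *Sele* 110 and 0, whereas *Cxcl10* had 63 and 64 and *C3* 28 and 65. These 4 genes were chosen after their values were seen.

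**Figure D3:**
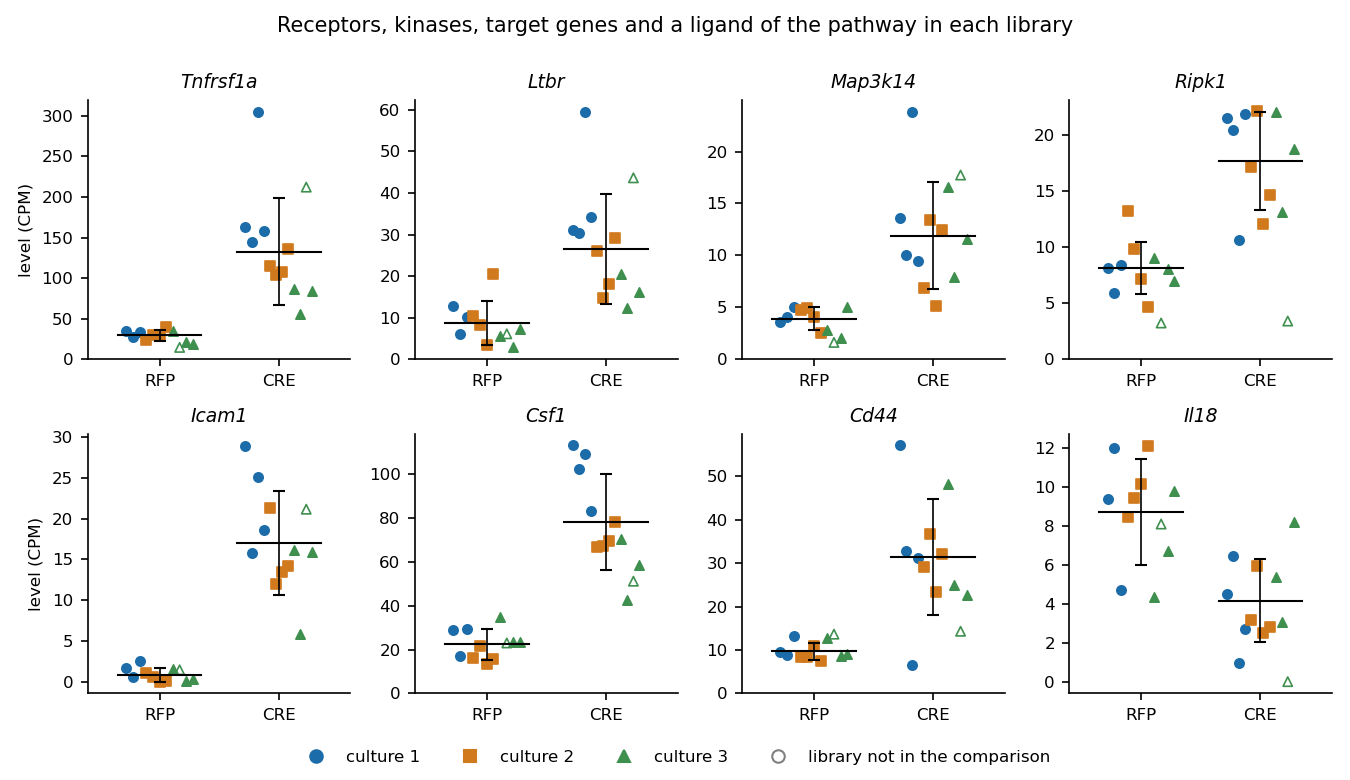
Level (CPM, linear axis) of 8 genes of the wider pathway in every library, drawn as in the plot of the 10 genes. All CRE libraries compared lie above all RFP libraries for *Tnfrsf1a*, *Map3k14*, *Icam1* and *Csf1*, and *Il18* is lower in CRE libraries with overlap.

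Of 11 ligands, 8 failed the filter. *Tnf* and *Il1a* had 0 counts in all 21 libraries. *Il1b* had 93 counts in all CRE and 4 in all RFP libraries, *Tnfsf13b* 46 and 6 and *Lta* 25 and 15. *Ltb* had 16 and 18, *Tnfsf11* 8 and 12 and *Cd40lg* 1 and 2. *Tnfsf12* was higher (log2 fold change 1.84, adjusted p = 0.000513), although it shares 980 of its 1872 exon bases with *Tnfsfm13* on the same strand. *Il33* was higher (2.15, adjusted p = 0.0103) and *Il18* lower (-1.08, adjusted p = 0.00501). Both of these calls were lost without culture 2 (2.04, adjusted p = 0.0967, and -0.80, adjusted p = 0.210).

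Of 4 other subunits and inhibitors, 3 were tested and 1 was called, the nuclear inhibitor *Nfkbiz*, at 16.8 ± 5.25 and 8.25 ± 3.19 CPM (log2 fold change 1.01, SE 0.22, adjusted p = 0.00117). Of the 9 parts of the SCF ligase and its ubiquitin-conjugating enzymes, 2 were higher and 1 lower, with a median of -0.03. For both lists, the shares over all genes tested were 16.4% higher and 13.8% lower, with a median of 0.02. *Rbx1* averaged 65.8 ± 16.6 and 93.8 ± 7.36 CPM (-0.53, SE 0.13, adjusted p = 0.00345). The ubiquitin-conjugating enzymes *Cdc34* (0.48, adjusted p = 0.0393) and *Ube2r2* (0.26, adjusted p = 0.0447) were at the threshold. When 1 library was left out, *Cdc34* kept its call in 8 of 21 fits, those without Nedd8Cre1-4, Nedd8Cre2-1, Nedd8Cre3-1, Nedd8Cre3-4, Nedd8RFP1-2, Nedd8RFP2-1, Nedd8RFP2-4 or Nedd8RFP3-1, and lost it in the others, with adjusted p up to 0.0880 and 0.31 without Nedd8Cre1-3. *Ube2r2* kept its call in 3 of 21, those without Nedd8Cre1-3, Nedd8RFP2-3 or Nedd8RFP2-4, with adjusted p up to 0.136 in the others. *Cul1* stood at -0.06 and *Fbxw11*, the paralogue of *Btrc*, at -0.03, with adjusted p of 0.774 and 0.856. Both were lowest among the CRE libraries compared in Nedd8Cre1-3, at 28.6 and 119 CPM. Over the fits that left out 1 library, *Cul1* ranged from -0.15 to 0.01 and *Fbxw11* from -0.09 to 0.02.

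**Figure D4:**
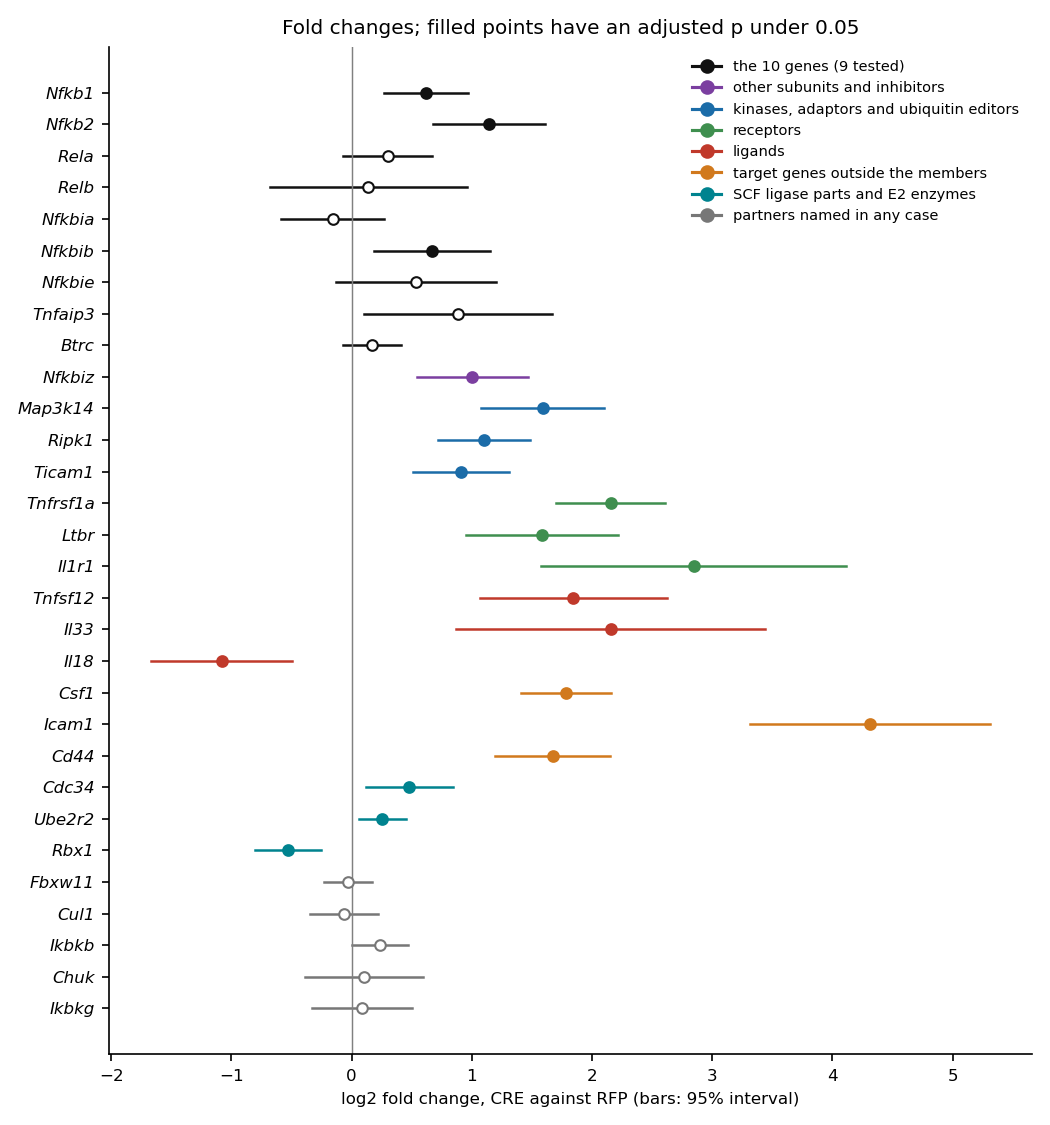
Log2 fold change of CRE against RFP libraries with its 95% interval, for the 9 genes tested, the pathway genes named by a fixed rule and 5 partners that act on the IkB proteins. Filled points have an adjusted p under 0.05, and *Icam1* has the highest value at 4.31.

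Other cell types in the dishes were followed by marker genes. The counts of markers called are to be read beside all genes tested, of which 16.4% were higher and 13.8% lower. Summed markers of neurons lay between 3342 and 6764 CPM in CRE and between 7942 and 8982 CPM in RFP libraries, and 7 of 10 were lower. Of 8 markers of the oligodendrocyte lineage, 5 were lower, with sums of 425 to 1910 CPM in CRE and 647 to 1867 CPM in RFP libraries. Of 9 astrocyte markers, 2 were higher and 3 lower, with sums of 1442 to 4546 CPM and 3132 to 6386 CPM. Microglial markers were near the detection limit, with 3 of 12 tested and sums of 5.72 to 12.5 CPM in CRE and 2.77 to 11.7 CPM in RFP libraries. Of the 3 tested, *Tmem119* was higher, at 1.82 ± 1.05 and 0.193 ± 0.283 CPM (log2 fold change 3.21, adjusted p = 0.000517, edgeR), and the other 2 were not called. Of the 9 not tested, *P2ry12* had the most counts, 118 in all CRE and 84 in all RFP libraries, and *Cx3cr1* had 0 and 15. Markers of endothelial and mesenchymal cells summed to 15.5 to 245 and 18.9 to 121 CPM, with 1 of 7 tested higher and 1 lower. The medians of the sums were 5420 CPM in CRE and 8662 CPM in RFP libraries for neurons. They were 798 and 1500 CPM for the oligodendrocyte lineage and 4003 and 4874 CPM for astrocytes. For microglia they were 8.35 and 5.12 CPM, and for endothelial and mesenchymal cells 67.3 and 60.8 CPM. In these bulk samples fewer cells of a type and less RNA per cell cannot be told apart, and the part of the cell composition in the values of the 10 genes was not tested.

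**Figure D5:**
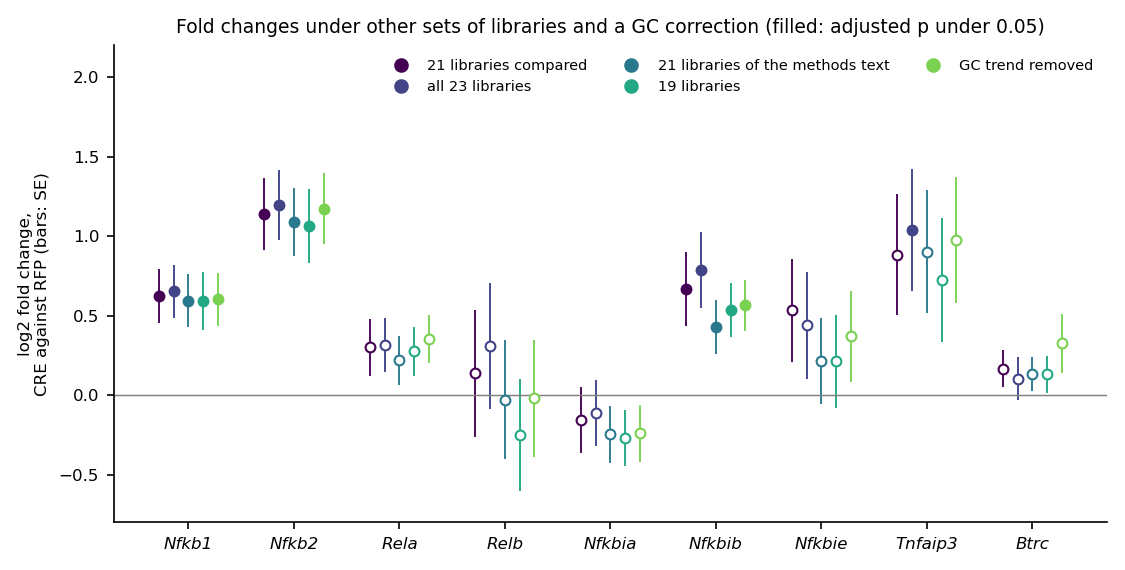
Log2 fold change of the 9 genes tested, with SE, over the 21 libraries compared, all 23 libraries, the 21 left by the methods text, 19 libraries without those that stood apart, and the 21 compared with the trend with GC content removed. *Nfkb1*, *Nfkb2* and *Nfkbib* have filled points, an adjusted p under 0.05, in all 5, and *Tnfaip3* in 1.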

How the data were processed

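Counts of reads per gene were deposited by the authors for each of 23 libraries, without normalization. They had been made with bcl2fastq 2.20.0.422, STAR 2.7.8a and featureCounts 1.5.0-p1 on GRCm39, per the labels, after a stranded mRNA library preparation. The strand setting and the treatment of reads that map to several places are not given in the sources used here. Totals per library ran from 1546796 to 17112815 counts.

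Genes were named with GENCODE M39, which named 56323 of 56941 identifiers. CRE and RFP were compared with edgeR 4.0.16 in R 4.3.3 (filterByExpr, TMM, robust quasi-likelihood fit). P-values were adjusted after Benjamini and Hochberg across every gene in the fit, and a gene was called at an adjusted p under 0.05. The 21 libraries are those of the authors' count table. Their methods text names Nedd8Cre1-3 and Nedd8Cre3-3 as removed, so other sets of libraries were alternatives. CPM values were scaled with TMM factors from 14382 genes kept by filtering all 23 libraries together. The alternatives were other library sets, DESeq2 1.42.0, other scaling factors, no filter, cultures or library numbers as blocks, sums per culture, removal of the trend with GC content, and each library or culture left out in turn.

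The members and lists were chosen with earlier results of these data known. Named were the 10 members and *Nedd8*, the 3 called genes with the smallest p in each pathway list and direction, 5 partners that act on the IkB proteins, and the 2 genes closest to each called member in their pattern. Of every pair of libraries of a group, none agreed within sampling noise. On simulated data for this comparison with 14318 genes, edgeR called 13 of 66 genes with a simulated log2 change of 0.5, 50 of 67 with 1, 58 of 67 with 2, and 5 unchanged genes. A far smaller share of genes was changed in the simulation than the 30.2% called in the data. The simulated libraries also had no cultures and none that was made to stand apart. These rates may therefore not hold for the real libraries.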

Additional observations from a re-analysis of the deposited data

Results flagged for a closer look

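Dixon's test at the 95% level flagged a library far from the others for 6 of 32 genes checked, in the 10 RFP libraries compared. Chance gives this in about 1 of 20 groups of normally distributed values. CPM near 0, as for *Birc3*, *Il1r1* and *Il33*, may not be so distributed, and the rate for them was not tested. For *Nfkb1* the flagged library was Nedd8RFP3-4, the highest at 13.3 CPM. The same library was highest for *Birc3* at 0.202 CPM, which rested on 2 counts. For *Tnfaip3* it was Nedd8RFP1-2, the highest at 13.4 CPM, and the same library was highest for *Il1r1* at 4.30 CPM. Nedd8RFP3-3 was highest for *Il33* at 2.85 CPM, and Nedd8RFP2-1 lowest for *Ikbkb* at 25.9 CPM. The call of *Nfkb1* was kept without Nedd8RFP3-4, and *Tnfaip3* was called only without Nedd8RFP1-2 among the fits that left out 1 library.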

How the results depend on the processing

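Across 37 alternatives, *Nedd8* and *Nfkb2* were called in each, with log2 fold changes from -2.60 to -2.29 and from 0.94 to 1.29. *Nfkb1* was called in 34, *Nfkbib* in 26 and *Tnfaip3* in 7, and no called gene reversed its direction. Between 2 and 4 of the members were called, and between 19 and 35 of the other pathway genes. Of all genes, 14.3% to 38.1% were called in these alternatives. The 19 were among 69 tested without culture 2, where 14.3% of all genes were called. The 35 were among 98 tested without the filter, where 21.2% were called. When 1 library was left out, the genes called ranged from 4031 to 5507. The total moved by over 1.5 times without the filter on low counts (6920 called, 4367 higher and 2553 lower, where the median of all genes was 0.14) and without culture 2 (2114 called, 1311 higher and 803 lower). CRE and RFP libraries share culture numbers, but their deviations correlated by 0.0117, 0.0359 and 0.0199, so the numbers were not taken to pair them. With culture as a replicate block 4267 genes were called and *Tnfaip3* was among them (1.03, adjusted p = 0.0259). With the library number as a replicate block 4235 were called, and *Nfkbib* was not (0.62, adjusted p = 0.0514). *Nfkbib* was also not called without culture 1 (adjusted p = 0.125) or culture 3 (adjusted p = 0.212), and *Nfkb1* not without culture 1. The cause of these losses was not tested. *Birc3* and 8 of the 11 ligands did not pass the filter on low counts, and their values rest on few or no reads.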
